A study of Mus musculus with 2 samples.

Results

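The miRNAs described here are those known for a high level or a role in myeloid cells: miR-223, miR-142, miR-21, miR-22 and miR-222. They were taken by name from the authors' deposited table, which has a row for each of 384 assays, 376 of them for miRNAs. The names give 7 assays, mmu-miR-223, rno-miR-223, mmu-miR-142-3p, mmu-miR-142-5p, mmu-miR-21, mmu-miR-22 and mmu-miR-222. Both samples came from RAW264.7, a mouse macrophage cell line. In one, RNA was captured with a control probe, and in the other with a probe for the mRNA of Stat3, a transcription factor downstream of cytokine receptors. The probes were transfected for 24 hours and captured on streptavidin beads, and miRNAs were read by real-time PCR with SYBR green, so that the study could look for miRNAs bound to Stat3 mRNA. Each probe has 1 pull-down and 1 plate. Differences between the probes therefore have no replicate check and no test.

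A miRNA is cut from a hairpin precursor and guides an Argonaute protein to mRNAs, mainly by pairing of its seed, bases 2 to 8. miR-223 is a granulocyte and monocyte miRNA that restrains neutrophil production and inflammasome genes. miR-142 is made in nearly all blood cells from a hairpin with a functional miRNA on either arm. miR-21 is induced by Stat3 in several cell types and limits inflammatory signalling and cell death. miR-22 acts in blood stem cells and in myeloid differentiation, and miR-222, with its neighbour miR-221, restrains the growth factor receptor Kit and the cell cycle inhibitor p27.

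Mature sequences are shown because the assays are told apart by them and because a shared seed groups miRNAs by the sites they can pair with. RefSeq sequences of build GRCm38.p6 were matched to the 6 mouse-named assays, taking the main arm where the assay name gives none, and to miR-221. The letters in capitals are the seed.
miR-223-3p: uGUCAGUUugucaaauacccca
miR-142a-3p: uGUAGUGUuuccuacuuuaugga
miR-142a-5p: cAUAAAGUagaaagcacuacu
miR-21a-5p: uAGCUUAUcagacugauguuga
miR-22-3p: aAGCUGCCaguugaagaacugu
miR-222-3p: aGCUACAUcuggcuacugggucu
miR-221-3p: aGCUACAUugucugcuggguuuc

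No pair of the listed members shares a seed. miR-222-3p shares its seed with miR-221-3p, and these sequences are identical over the 8 bases from the 5′ end and at 11 of 23 positions aligned without gaps. The guanine and cytosine content of the members ranged from 33.3% for miR-142a-5p to 52.2% for miR-222-3p. The members come from 5 hairpin genes on chromosomes 11 and X. miR-22-3p lies at chr11:75463772-75463793 on the plus strand within the span of Mir22hg, and miR-21a-5p at chr11:86584120-86584141 on the minus strand within the span of Vmp1. The arms of miR-142a lie at chr11:87756867-87756887 and chr11:87756903-87756925 on the plus strand, separated by 15 bases. miR-222-3p lies at chrX:19146901-19146923 on the minus strand, and the start of miR-221-3p is 594 bases away. miR-223-3p lies at chrX:96242884-96242905 on the plus strand within the span of F630028O10Rik.

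The plate reports a threshold cycle (Ct), the PCR cycle at which a well crosses a fixed signal. A lower Ct means more template. Ct orders the assays by signal and not strictly by abundance, since assays differ in efficiency. An assay was called measured below 35 cycles, the limit recovered from the authors' deposited table. Of the 7 member assays, 5 were measured with the control probe, against 30.3% of all miRNA assays, and 6 with the Stat3 probe, against 33.2%. Measured in both pull-downs were 5 (71.4%), against 26.6%. miR-22 was seen with the Stat3 probe alone, a state shared by 6.65% of all miRNA assays, and miR-142-5p in neither. The members did not share a high level: miR-21, miR-142-3p and miR-222 gave early signals, whereas both miR-223 assays and miR-22 came late.

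miR-21 gave the lowest Ct of the group, 27.19 with the control and 26.33 with the Stat3 probe. miR-142-3p followed, with a control Ct of 28.07 and a Stat3 Ct of 27.48. For miR-222 these values were 28.65 and 28.17. These 3 were the earliest members with either probe, and each came earlier with the Stat3 probe.

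The mouse-named miR-223 assay gave a control Ct of 32.09 and a Stat3 Ct of 32.29, and was the only measured member to come later with the Stat3 probe. The rat-named assay had 32.82 and 32.68. miR-223 therefore crossed the threshold 4.91 cycles after miR-21 with the control probe and 5.96 cycles after it with the Stat3 probe. The median Ct of the 100 miRNA assays measured in both pull-downs was 31.81 with the control and 30.59 with the Stat3 probe, so both miR-223 assays were later than the median in either pull-down.

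miR-22 crossed the threshold at 33.73 cycles with the Stat3 probe and at 35.22 with the control probe, 0.22 cycles past the limit. The row of miR-142-5p in the authors' deposited table holds the value shared by all assays at or past the limit on both plates. No well could be tied to it, and its Ct is known only to be at or above 35 with each probe.

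**Figure D1:**
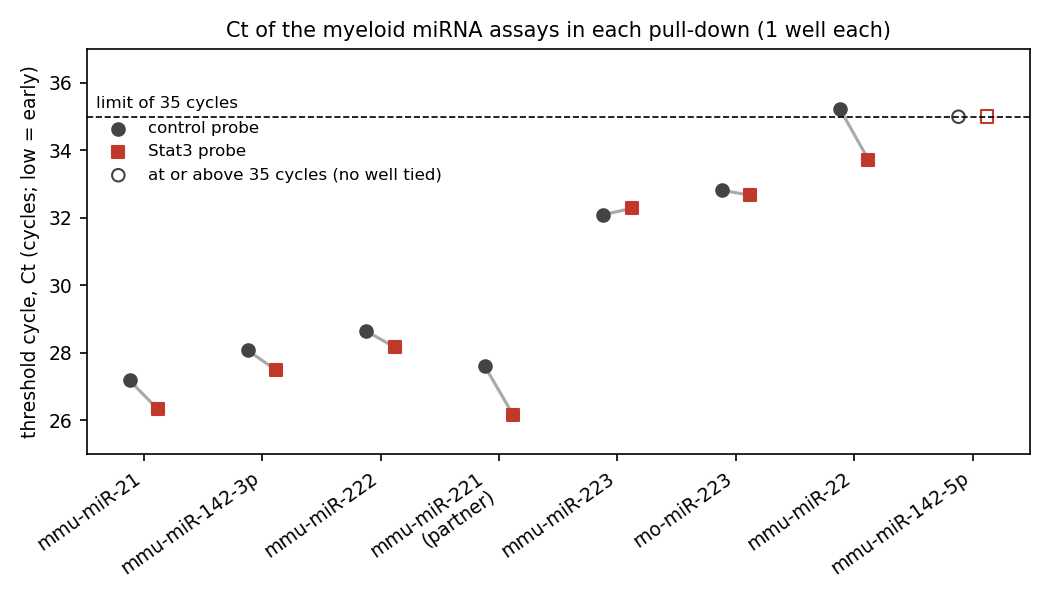
The vertical axis is the threshold cycle and each column is an assay, with a circle for the control probe and a square for the Stat3 probe; mmu-miR-221 is the partner of miR-222 and no member, and open symbols stand for miR-142-5p, which has only a bound. miR-21, miR-142-3p and miR-222 lie between 26.33 and 28.65 cycles, and the miR-223 assays between 32.09 and 32.82.

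The order of the members was the same with both probes: miR-21, miR-142-3p, miR-222, mmu-miR-223, rno-miR-223 and miR-22. The error on these plates is known only from UniSp3, a calibrator template present at a set amount in 3 wells of each plate. The SD of their Ct was 0.29 cycles among control wells and 1.16 cycles among Stat3 wells. With the control probe every step in the order was larger than that SD. The smallest were 0.57 cycles from miR-142-3p to miR-222 and 0.73 from the mouse-named to the rat-named miR-223 assay. With the Stat3 probe the step of 4.12 cycles from miR-222 to miR-223 was well beyond the SD. The step from miR-21 to miR-142-3p was 1.16 cycles, about as large as the single-well SD. The remaining steps, of 0.68, 0.39 and 1.05 cycles, were smaller. The break between the early and the late members was thus clear in either pull-down, and the order within each set was not resolved with the Stat3 probe. How far the control probe resolves that order was not tested.

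Ratios of the Stat3 probe over the control probe are given on the scale of the authors' deposited table, whose values contain an offset of 0.7 cycles. The control minus Stat3 difference of the 3 calibrator wells was -0.89 ± 0.97 cycles (SD, n = 3 wells), so a 2-fold difference in an assay is about 1 SD. miR-21 had a ratio of 2.96, miR-142-3p of 2.44 and miR-222 of 2.26. The rat-named miR-223 assay was at 1.80 and the mouse-named one at 1.42. Of these 5 assays, 3 were at least 2-fold higher with the Stat3 probe, against 73.0% of the 100 miRNA assays measured in both pull-downs. None was at least 4-fold higher, against 53.0%, and none was at least 2-fold lower, against 2.00%. miR-22 was at least 3.93-fold higher with the control probe set at 35 cycles, and 4.59-fold higher from its determined Ct of 35.22. miR-142-5p has no ratio, since the value of 1.625 listed for it is the offset alone.

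All 5 ratios lay below the median of the 100 assays, 4.22-fold, so the sign of each depends on the scale. On the deposited scale the 5 were above 1, and without the offset of 0.7 cycles mmu-miR-223 fell below it, at a log2 ratio of -0.19, while the other 4 stayed above. Relative to that median miR-21 stood at 0.701, miR-142-3p at 0.579, miR-222 at 0.537, rno-miR-223 at 0.426 and mmu-miR-223 at 0.337. The distances on the log2 scale were -0.51, -0.79, -0.90, -1.23 and -1.57, the last 2 of them larger in size than the calibrator SD. From its determined Ct, miR-22 lay 0.12 above that median on the log2 scale. The member median was 2.26-fold. The order of assays by Ct needs no offset, but it comes from the same Ct values as the ratios and takes no account of plate rows. Within the 100 assays each of the 5 members stood later in this order with the Stat3 probe. miR-21 was the 3rd earliest with the control probe and the 7th with the Stat3 probe. miR-142-3p was the 8th and the 18th, and miR-222 the 13th and the 25th. mmu-miR-223 was the 54th and the 77th, and rno-miR-223 the 64th and the 84th. miR-221 was the 6th with both probes.

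**Figure D2:**
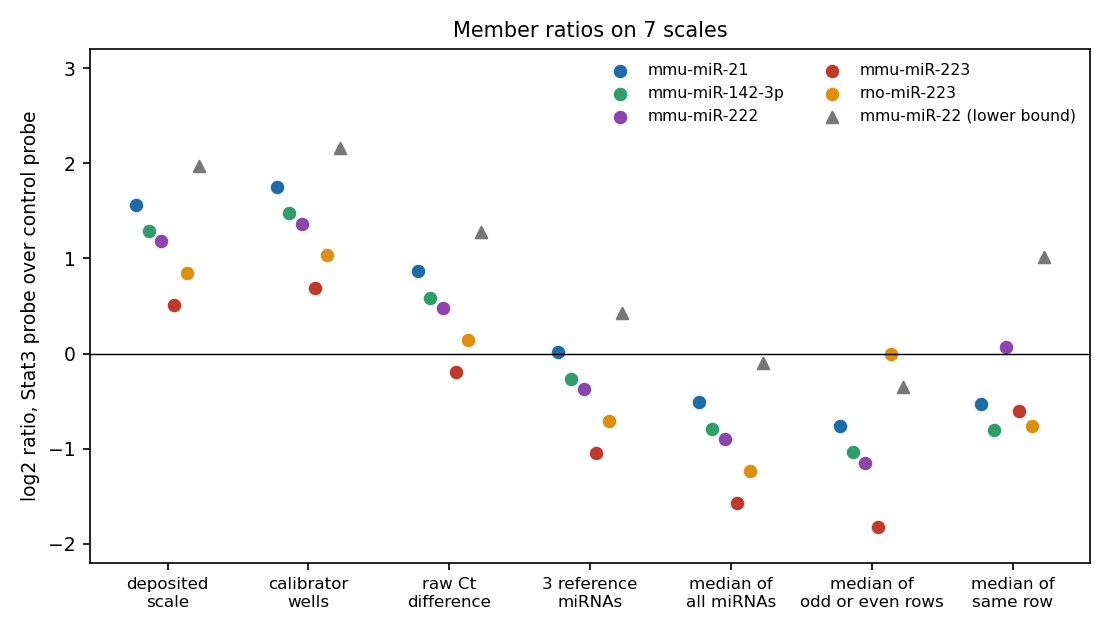
The vertical axis is the log2 ratio of the Stat3 probe over the control probe, and each column is a way to set its zero; points are single assays, and the triangles of miR-22 are lower bounds. On the deposited scale all points lie above 0, from 0.51 for mmu-miR-223, and against the median of all miRNAs the 5 circles lie below it, down to -1.57; a triangle below 0 gives no direction.

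Ratios differed between odd plate rows (A, C, E, ...) and even ones (B, D, F, ...). The median was 5.01-fold over the 74 assays of the odd rows and 1.80-fold over the 26 of the even rows. The part of this difference in the member ratios was not tested beyond comparison with the assays of like rows. Of the 4 members of odd rows measured in both pull-downs, 3 were at least 2-fold higher, against 82.4% of all such assays there. At least 4-fold higher were 0, against 60.8%. In the even rows 46.2% of assays were at least 2-fold higher. The rat-named miR-223 assay is the member of the even rows, in row D, and was not among them. Its ratio was 0.996 times the median of those rows. The other measured members lie in rows E and M, and stood below the median of odd rows, miR-21 at 0.590 of it, miR-142-3p at 0.487, miR-222 at 0.452 and mmu-miR-223 at 0.283. Single rows differed too: the median was 4.26-fold over 10 assays in row E, 2.15-fold over 12 in row M and 3.06-fold over 5 in row D. Against its own row miR-222 was no longer below the median, with a log2 difference of 0.07. The others were below it, with -0.53 for miR-21, -0.80 for miR-142-3p, -0.60 for mmu-miR-223 and -0.77 for rno-miR-223. None of the 6 member wells carried an instrument warning on either plate, as for most wells tied to a miRNA, of which 7 of 137 carried one on at least 1 plate.

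The level with the control probe was then set beside the ratio. Among the 5 measured members, the earlier the control Ct, the higher the ratio, except for the 2 miR-223 assays, of which the later had the higher ratio. The largest log2 difference between any 2 of them was 1.06, between miR-21 and mmu-miR-223. It was smaller than 1.38, the SD of a difference between 2 log2 ratios that each carry the calibrator SD. Over the 100 assays, the control Ct and the log2 ratio had a Pearson r of 0.14 and a Spearman rho of 0.13, and the Stat3 Ct and the log2 ratio had an r of -0.49, in which earlier assays had the higher ratio. Each Ct is part of the ratio, which by itself pulls the first r upward and the second downward, and all points share 2 plates. For the control Ct, r was 0.17 within odd rows and 0.22 within even rows.

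Assays of like control level had higher ratios than the members. Within 1 cycle of the control Ct of miR-21, 6 other assays had a median of 3.90-fold, and 2 of them lay below miR-21. For miR-142-3p the median of 14 such assays was 4.32-fold, with 5 lower. For miR-222 it was 4.79-fold over 15 assays, with 3 lower. Around mmu-miR-223, 21 assays had a median of 3.06-fold and 2 were lower. Around rno-miR-223, 31 had a median of 3.67-fold and 8 were lower. All 5 members thus stood below the median of assays of like level. Restricted to assays of like rows (odd or even) this held for 4, since rno-miR-223, at 1.80-fold, was above the 1.65-fold median of its 8 neighbours in level, 5 of which were lower.

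**Figure D3:**
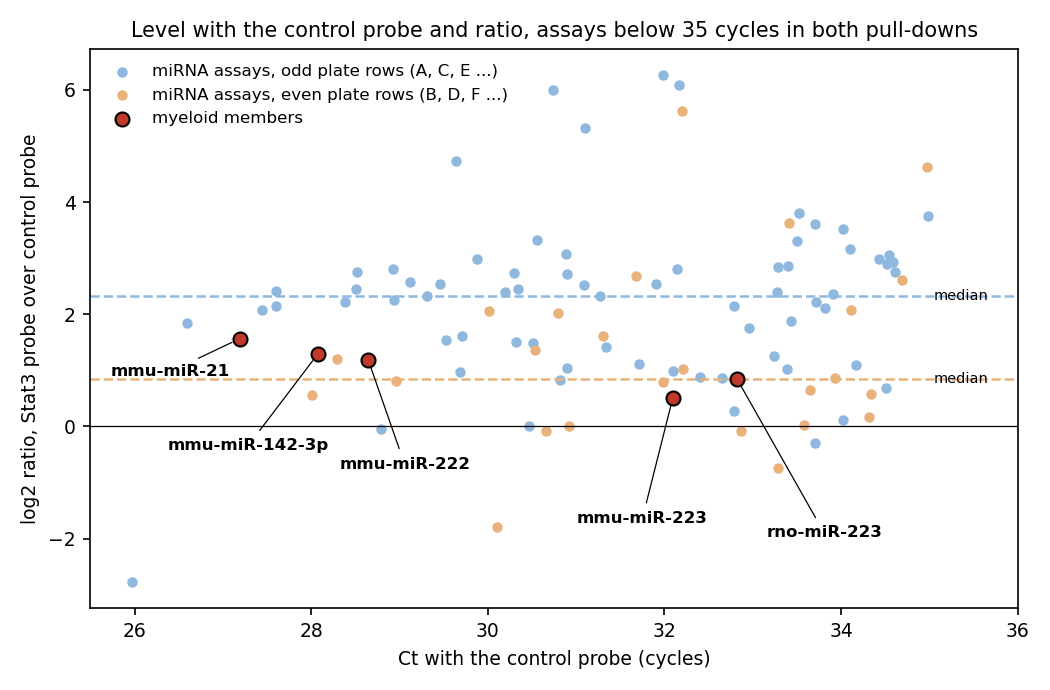
The horizontal axis is the Ct with the control probe and the vertical axis the log2 ratio of the Stat3 probe over the control probe, for the 100 miRNA assays measured in both pull-downs; dashed lines are the medians of odd and even plate rows, 2.33 and 0.85. The members of odd rows lie below the upper line at early and at late Ct, and rno-miR-223 lies on the lower line.

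The miR-223 assays read a miRNA of the same number in mouse and rat. Only the mouse sequence was used here, and whether the assays detect the same molecule is not given in the sources used here. They differed by 0.73 cycles with the control and 0.39 with the Stat3 probe, and by 0.34 in log2 ratio, below the calibrator SD. The mouse-named assay is in an odd row and the rat-named one in an even row. On the scale set by the medians of these rows they were farther apart, with log2 ratios of -1.82 for the mouse-named and -0.01 for the rat-named assay, a difference of 1.81. Without any row scale, both assays gave a low ratio at a late Ct.

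The arms of miR-142 gave unlike signals. miR-142-3p crossed the threshold 6.93 cycles before the limit with the control probe and 7.52 cycles before it with the Stat3 probe. miR-142-5p did not cross the threshold before the limit with either probe. The Ct of the arms therefore differed by at least those numbers of cycles. No ratio of the arms can be compared between probes, as the 5p arm has only bounds.

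miR-222 and its partner miR-221 come from neighbouring hairpins and share a seed. miR-221 gave a control Ct of 27.61, a Stat3 Ct of 26.16 and a ratio of 4.43, close to the median of all miRNAs. miR-222 was later by 1.04 cycles with the control and by 2.01 with the Stat3 probe. The log2 ratio of miR-221 was higher by 0.97, which is below the SD of 1.38 for a difference of 2 log2 ratios. miR-221 is in row C, where the median was 5.25-fold over 7 assays, and miR-222 in row M, where it was 2.15-fold. Against these medians the direction turned, with a log2 difference of -0.25 for miR-221 and 0.07 for miR-222.

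The assays nearest to each member in the plane of both Ct values were found by distance in cycles over the 2 pull-downs. For miR-21 they were miR-16, at 0.36 cycles, and miR-221, at 0.45. For miR-142-3p they were rno-miR-146b, at 0.38 cycles, and miR-103, at 0.67, and the same assays were nearest to miR-222, at 0.51 and 0.63. miR-26b, at 0.32, and miR-351, at 0.41, were nearest to mmu-miR-223. let-7i, at 0.26, and miR-195, at 0.42, were nearest to rno-miR-223. The neighbours of miR-21 had ratios of 4.22 and 4.43, above that of miR-21, and those of the other members had ratios between 1.47 and 2.38. Neighbours chosen by both Ct values have ratios near that of the member by the choice itself. rno-miR-146b, miR-103 and miR-351 lie in even rows and their members in odd ones. let-7i and miR-195 lie in odd rows and rno-miR-223 in an even one.

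A further 24 miRNAs known from macrophages and other white blood cells were listed for comparison. Of these 23 were on the plate and 19 were measured in both pull-downs, against 26.6% of all miRNA assays. At least 2-fold higher were 15 of the 19, against 73.0% of all miRNA assays measured, and at least 4-fold higher were 10, against 53.0%. Their median was 4.06-fold, near that of all miRNAs, and they ran from let-7f at 0.964-fold to miR-26a at 6.97-fold. In odd rows the list has 15 measured assays with a median of 4.43-fold. Of these, 11 had a higher ratio than miR-21, 13 a higher one than miR-142-3p and miR-222, and 14 a higher one than mmu-miR-223. In even rows, miR-155, which is induced by Toll-like receptor signals, was at 1.76-fold, next to rno-miR-223. miR-155 was also seen early, at 28.96 cycles with the control and 28.84 with the Stat3 probe. miR-146a, a feedback inhibitor of the same receptors, was at 2.81-fold, between miR-21 and miR-142-3p. miR-181a, which acts in lymphocyte development, was below the limit with the Stat3 probe alone, at a Ct of 30.53. Its control Ct of 35.13 was just past the limit, and it was at least 36.1-fold higher. The same holds for miR-503, with a Stat3 Ct of 33.36, a control Ct of 35.31 and a ratio of at least 5.06-fold. miR-150 and miR-342-3p were in neither.

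**Figure D4:**
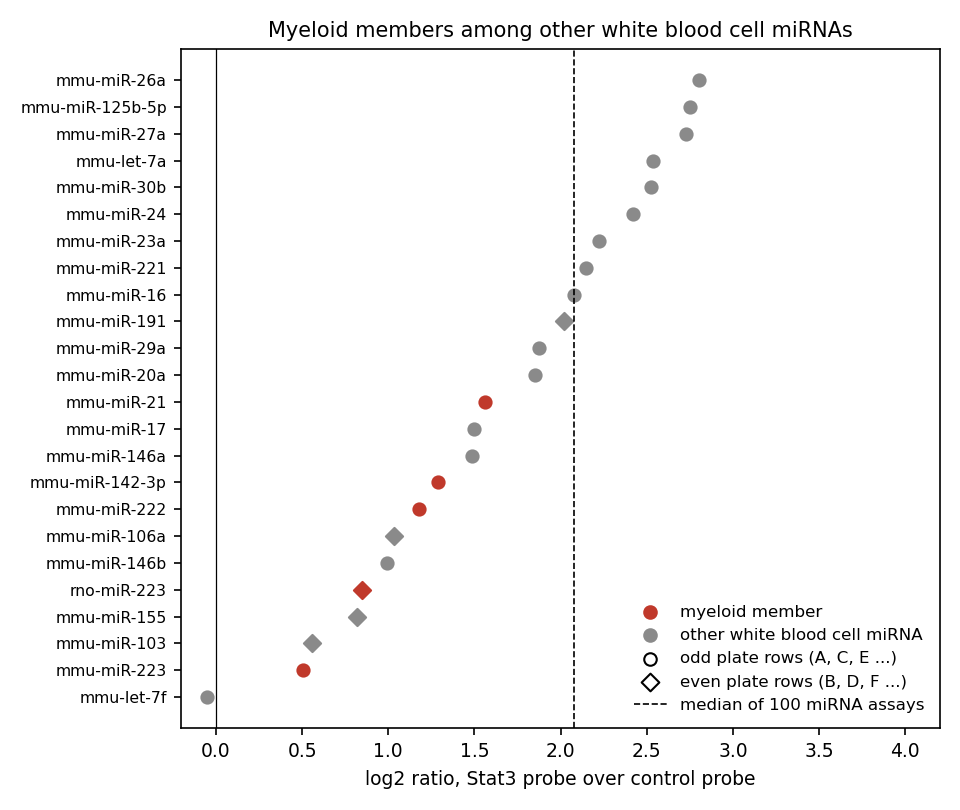
Each row is a miRNA assay measured in both pull-downs and the horizontal axis is its log2 ratio of the Stat3 probe over the control probe; diamonds are assays of even plate rows. The 5 members (coloured) run from 0.51 to 1.56, all left of the dashed median of 2.08, among 19 other white blood cell miRNAs between -0.05 and 2.80.

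Markers of other cell types were listed as well. Of 25 marker assays, 15 (60%) were measured in neither pull-down, against 63.0% of all miRNA assays, and 10 (40%) were measured with the control probe, against 30.3%. The lymphocyte miRNA miR-150 and the muscle and stromal miRNAs were among the 15. All 25 assays are mouse-named. Of miRNAs among the 15, a rat-named assay measured the stromal miR-214 in both pull-downs, at 33.58 (control) and 34.25 (Stat3) cycles. Rat-named assays also measured miR-143 with the Stat3 probe alone, at 34.98, and the epithelial miR-200b with the control probe alone, at 33.94. Of the 25, 6 were measured with the control probe alone and 4 in both pull-downs. Over all 376 miRNA assays 114 were measured with the control probe, 100 of them in both pull-downs (26.6%). The 6 were miR-375, miR-200a, miR-205, miR-144, miR-122 and miR-124. Control Ct lay near the limit for miR-375 (34.72), miR-200a (34.94), miR-205 (34.97) and miR-122 (34.62). The Stat3 Ct of miR-200a was 35.43, just past the limit. The earliest marker was the erythroid miR-451, at 30.47 cycles with the control and 31.17 with the Stat3 probe. It came later than miR-21, miR-142-3p and miR-222 and earlier than both miR-223 assays and miR-22. With the Stat3 probe the neural miR-9, at 31.25 cycles, and the endothelial miR-126-3p, at 31.58, also came earlier than miR-223. Other markers of the same types did not follow. The neural miR-124 came at 32.76 cycles with the control and at 35.35 with the Stat3 probe, past the limit. The neural miR-128 was in neither, and the erythroid miR-144 came at 34.37 with the control probe and past the limit with the Stat3 probe. The ratios of miR-9 and miR-126-3p, 7.22 and 5.25, were above those of all 5 members measured in both pull-downs. miR-451 was at 1.0-fold, the epithelial miR-200c at 0.815-fold, and miR-124 at most at 0.344-fold. All 4 markers measured in both pull-downs lie in odd rows, where the median was 5.01-fold and 60.8% of assays were at least 4-fold higher. The part of these cell types in the member values was not tested.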

How the data were processed

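Each plate file is an export of SDS 2.3 with a raw Ct per well at a manual threshold of 0.15, per the file headers; no normalization is given there, and the Ct files name no miRNA. The authors' deposited table gives a ratio per assay. The column is headed as a log fold change, yet its values behaved as linear ratios: the base-2 logarithm of each equals the control Ct less the Stat3 Ct plus 0.7, with each Ct set to at most 35. Names were tied to wells through this identity within a tolerance of 0.0006: of 384 rows 142 matched 1 well, 4 matched 2 wells and 238 held the offset alone. All members but miR-142-5p matched 1 well. The pair of miR-451 and UniSp6 was split by taking the earlier well as the spike-in. The offset and the limit are stated in no label or header. The matching script was tested on simulated data. Python 3.11.15, numpy 2.4.6, pandas 2.3.3 and matplotlib 3.10.9 were used.

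Named assays are all members, the 2 assays nearest to each measured member in the Ct plane, miR-221, and the white blood cell list. Members and lists were chosen with earlier results of these data known. The values are Ct, not the relative levels that the labels describe. With 1 pull-down per probe no test was made; the calibrator wells cover error of PCR and wells only. Alternatives were other scales, limits of 33 and 37 cycles, a 4-fold threshold and other level windows.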

Additional observations from a re-analysis of the deposited data

Results flagged for a closer look

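Wells outside the comparison also held signal. At or past 35 cycles on both plates were 238 wells, which have no name here and include the well of miR-142-5p. Of these, a Ct was recorded for 89 on the Stat3 plate and for 67 on the control plate, and 112 had none on either. The lowest such Ct was 35.06 and 35.08 cycles, respectively. Whether the well of miR-142-5p is among those with a Ct is not known.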

How the results depend on the processing

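No paired analysis was possible because each probe has 1 pull-down, and no replicate could be left out. The log2 ratios of the members moved by a common amount on scales with a single zero for all assays. On the row scales they moved by different amounts. Against odd or even rows rno-miR-223 went to -0.01 and mmu-miR-223 to -1.82, and against the same row miR-222 went to 0.07. The member median of 1.18 became -0.90 against the median of all miRNAs, -1.04 against that of odd or even plate rows, -0.37 against 3 reference miRNAs (miR-103, miR-191 and miR-16) and -0.60 against the same plate row. Under those 4 scales and with raw Ct differences, 0 of the 5 members measured in both pull-downs were at least 2-fold higher, against 3. For miR-22, outside this count, the log2 lower bound was 1.27 with raw Ct differences and 1.02 against the same row, both above 2-fold. Against the reference miRNAs it was 0.42. On the deposited scale 0 of the 5 members measured in both pull-downs were at least 4-fold higher. The same-row scale and leaving out rno-miR-223 were chosen after seeing the data. Against the median of all miRNAs, the log2 ratios of miR-21, miR-142-3p and miR-222 turned to -0.51, -0.79 and -0.90, and against odd or even rows to -0.76, -1.04 and -1.15. The lower bound of miR-22 was -0.10 and -0.35 on these scales, which gives no direction, and its determined Ct gave 0.12 and -0.13. Against the reference miRNAs miR-142-3p and miR-222 turned to -0.26 and -0.37, and against the same row miR-21 and miR-142-3p to -0.53 and -0.80. These turns follow from the subtraction. The calibrator scale, limits of 33 and 37 cycles and leaving out rno-miR-223 gave 3 or 4 members at least 2-fold higher and a median from 1.18 to 1.37. At 37 cycles the count of 4 and the median include miR-22. All 5 measured members stayed below the median of assays within 2 cycles, and 4 stayed below it within odd or even rows. At a limit of 33 cycles miR-22 has no value.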

Other observations

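Assays named for rat and for mouse under a common miRNA number gave a further view of miR-223. The plate holds 22 such pairs, of which 13 were measured in neither pull-down by either assay, and 3 were measured in both pull-downs by both assays. miR-146b, of the miR-146 family that restrains Toll-like receptor signalling, had a ratio in the authors' deposited table of 2.296 with the rat-named assay and 1.987 with the mouse-named one, although the rat-named assay came earlier, at 28.29 against 32.10 cycles with the control probe. miR-200c, an epithelial miRNA, had ratios of 1.499 and 0.815 there. In miR-146b, miR-200c and miR-223 the rat-named assay lies in an even plate row and the mouse-named one in an odd row. The log2 ratio of the rat-named assay was the higher in each, by 0.21, 0.88 and 0.34, all below the calibrator SD, whereas over all assays the ratios of even rows were the lower. Whether the assays of a pair detect the same molecule was not tested.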
